A study of Mus musculus with 8 samples.

Results

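Cholesterol synthesis genes were described here as 8 genes, Hmgcs1, Idi1, Fdps, Fdft1, Sqle, Cyp51, Dhcr7 and Insig1, chosen by name from the 55421 genes of the deposited table. All 8 were found once each. The libraries were total RNA of small intestine from wild-type mice kept at 7% oxygen for 7 days. In 4 of them the mice also received 4 mM nitrate (Hypoxia+Nitrate), and in the other 4 they did not (Hypoxia). Low oxygen was common to both groups, so the comparison is of nitrate with no nitrate under it. The groups also differed in background, as given below, which cannot be told apart from nitrate. The age of the mice is not in the labels, nor is it stated that the libraries are of different animals; the p-values below therefore rest on library-to-library spread, which may be technical. In whole tissue, fewer cells of a type and less RNA per cell cannot be told apart.

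Cells make cholesterol from acetyl-CoA. The first steps lead through HMG-CoA to mevalonate, and later enzymes build isoprenoid units, join them into squalene and close and trim the sterol ring. When membranes of the endoplasmic reticulum are low in sterol, SCAP escorts SREBP2 to the Golgi, where it is cleaved and released to switch on nearly all enzymes of the route. INSIG1 holds the SCAP complex back when sterol is sufficient, and its own gene is an SREBP target. In the small intestine, crypt and villus epithelium both make cholesterol, and enterocytes also take it up from the lumen.

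The promoters are shown because SREBP acts through short elements close to the start of these genes. RefSeq promoter sequences on GRCm38.p6 were held for 5 of the 8 members. The 250 bases before the annotated start are printed for Hmgcs1, Idi1, Insig1 and Cyp51. Hmgcs1 and Idi1 were called higher in Hypoxia+Nitrate, while Insig1 and Cyp51 did not pass the test. Capitals mark TCACNCCAC (a sterol regulatory element), CCAAT (the NF-Y box) and GGGCGG (the Sp1 box) on either strand.
Hmgcs1, chr13:119690101-119690350, plus strand: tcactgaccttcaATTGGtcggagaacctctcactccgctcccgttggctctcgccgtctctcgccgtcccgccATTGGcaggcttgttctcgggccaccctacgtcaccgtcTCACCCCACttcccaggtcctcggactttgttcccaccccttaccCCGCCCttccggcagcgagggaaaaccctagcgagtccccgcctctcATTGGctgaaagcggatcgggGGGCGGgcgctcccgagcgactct
Idi1, chr13:8885356-8885605, plus strand: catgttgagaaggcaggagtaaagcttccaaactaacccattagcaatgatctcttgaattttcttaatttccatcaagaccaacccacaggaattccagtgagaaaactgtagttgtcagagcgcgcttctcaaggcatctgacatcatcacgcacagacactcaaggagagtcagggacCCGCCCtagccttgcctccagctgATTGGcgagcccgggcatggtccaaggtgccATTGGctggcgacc
Insig1, chr5:28071162-28071411, plus strand: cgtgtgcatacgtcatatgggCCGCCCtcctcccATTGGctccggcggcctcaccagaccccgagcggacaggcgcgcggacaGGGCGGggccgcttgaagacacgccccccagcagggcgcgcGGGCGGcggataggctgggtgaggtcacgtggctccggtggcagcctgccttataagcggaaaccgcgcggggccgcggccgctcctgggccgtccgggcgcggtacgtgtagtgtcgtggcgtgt
Cyp51, chr5:4104698-4104947, minus strand: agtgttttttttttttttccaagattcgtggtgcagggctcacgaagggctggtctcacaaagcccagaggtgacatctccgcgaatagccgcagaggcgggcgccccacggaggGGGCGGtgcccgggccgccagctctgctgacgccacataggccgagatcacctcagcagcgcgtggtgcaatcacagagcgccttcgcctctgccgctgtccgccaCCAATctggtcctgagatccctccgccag

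Of these 4, TCACNCCAC stood only in Hmgcs1, 137 to 129 bases before the start, as TCACCCCAC. The TCACNCCAC form was present in 1.05% of 32851 promoter windows of the same length. TCACNCNAC, a looser form of it that overlaps every TCACNCCAC match, stood at the same place in Hmgcs1 and in 2.26% of all windows. Sterol elements of other sequence were not searched for, so none of these windows is shown to lack one. Hmgcs1 had 3 CCAAT boxes, Idi1 had 2, and Insig1 and Cyp51 had 1 each. CCAAT stood in 33.9% of all windows and GGGCGG in 32.7%. Dhcr7 has 3 annotated starts, of which 1 had CCAAT boxes and 2 had GGGCGG. A match describes the letters only, and no match says only that they are not in this window.

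The libraries differed before any single gene was considered. Total counts ran from 8662279 to 63943036 in Hypoxia+Nitrate and from 5345377 to 21835865 in Hypoxia. The background was estimated from 1468 receptor genes of smell and pheromone sensing (Olfr, Vmn1r, Vmn2r and Taar), taken as silent in gut. It amounted to 2.74% to 23.2% of nuclear protein-coding counts in Hypoxia+Nitrate and 39.0% to 63.7% in Hypoxia. Transcripts of mitochondrial DNA accounted for 64.0% and 49.3% of counts in Hypoxia+Nitrate 1 and 4, 7.31% and 6.90% in Hypoxia+Nitrate 2 and 3, and at most 1.06% in Hypoxia. The 10 enterocyte markers checked, Vil1, Fabp2, Epcam, Cdh17, Alpi, Sis, Lct, Krt20, Apoa4 and Rbp2, had counts in both groups. Their summed level was 32914, 1767, 875 and 36219 CPM (counts relative to library size, scaled by TMM) in Hypoxia+Nitrate 1 to 4, and 203, 603, 64.0 and 55.5 CPM in Hypoxia 1 to 4. All 10 rose, and their part in the results below was not tested. All 5 Paneth cell and all 5 smooth muscle markers rose too, as did 3 of 6 goblet cell and 2 of 7 immune cell markers. Of the cycling cell, fibroblast, and enteric neuron and glia markers, 1 of 5 rose in each list. Of 5 crypt stem cell, 5 enteroendocrine, 5 hepatocyte, 4 adipocyte and 4 endothelial markers tested, 0 rose, and 1 endothelial marker fell. Over all nuclear protein-coding genes tested, 18.5% were higher. The protocol in the labels mentions islets at RNA isolation. Markers of islet cells were not checked as a list. The 5 pancreatic markers checked are of acinar cells, so they do not show whether islet RNA was present. They summed to 6.6 to 11.7 CPM in Hypoxia+Nitrate and 9.33 to 11.8 CPM in Hypoxia, with 0 called.

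Hmgcs1, Idi1 and Fdps, all upstream of squalene, were higher in Hypoxia+Nitrate than in Hypoxia, while Fdft1, Sqle, Cyp51, Dhcr7 and Insig1 did not pass the test. The rises were 7.17-fold for Hmgcs1, 5.32-fold for Idi1 and 3.15-fold for Fdps. Thus 3 of 8 members rose, and 0 fell by edgeR's quasi-likelihood test with Benjamini-Hochberg adjustment at 0.05. At an unadjusted p under 0.05, 4 members were higher and 0 lower, and DESeq2 and limma-voom also called 0 lower. Over all 35431 genes tested, 24.4% passed, 11.7% higher and 12.7% lower; among nuclear protein-coding genes 18.5% were higher. The median log2 fold change was 1.13 for the 8 members, 0.04 for nuclear protein-coding genes and −0.58 for all genes tested. All 8 members passed the filter on low counts.

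**Figure D1:**
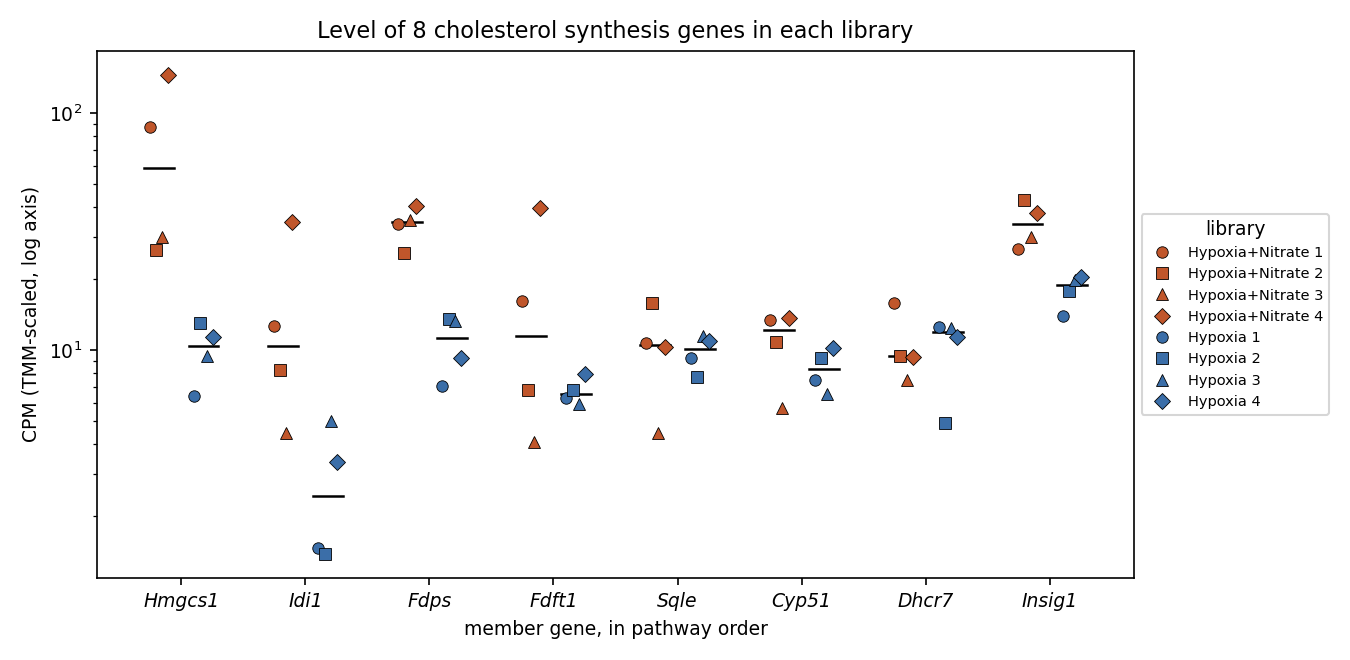
Level of each member in each library, in CPM scaled by TMM, on a log axis, with Hypoxia+Nitrate left of Hypoxia; symbols give the replicate number and the black line the group median. Hmgcs1, Fdps and Insig1 have every Hypoxia+Nitrate point above every Hypoxia point, while the other five overlap.

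Hmgcs1 encodes the cytosolic HMG-CoA synthase, which makes HMG-CoA on the way to mevalonate (ENSMUSG00000093930, GRCm38, chromosome 13, 119690379 to 119708260, plus strand). It stood at 86.8, 26.5, 29.9 and 145 CPM in Hypoxia+Nitrate 1 to 4, and at 6.41, 13.0, 9.43 and 11.3 CPM in Hypoxia 1 to 4. The groups did not overlap, and Hypoxia+Nitrate 1 and 4 were far above the other libraries. The log2 fold change was 2.84 (SE 0.63, edgeR adjusted p = 0.0117). Read counts behind these levels were 1222, 466, 549 and 2970 in Hypoxia+Nitrate 1 to 4, against 96, 179, 179 and 188 in Hypoxia 1 to 4. With only Hypoxia+Nitrate 2 and 3 set against Hypoxia, Hmgcs1 was still higher, at a log2 fold change of 1.58 (edgeR adjusted p = 0.0183). It was not called without Hypoxia 1 (log2 fold change 2.67, edgeR adjusted p = 0.0571; over 23 alternatives 0.000317 to 0.962).

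Idi1 encodes isopentenyl-diphosphate isomerase, which converts one isoprenoid building block into the other (ENSMUSG00000058258, chromosome 13, 8885501 to 8892451, plus strand). It held 12.6, 8.24, 4.46 and 34.8 CPM in Hypoxia+Nitrate 1 to 4, against 1.47, 1.38, 5.01 and 3.37 CPM in Hypoxia 1 to 4. Hypoxia+Nitrate 3 lay below Hypoxia 3, so the groups overlapped, and Hypoxia+Nitrate 4 was the highest. The log2 fold change was 2.41 (SE 0.71, edgeR adjusted p = 0.0315). Idi1 had 22, 19, 95 and 56 counts in Hypoxia 1 to 4, which is 0.382, 0.498, 1.44 and 1.03 times the expected background. Idi1 was thus below the expected background in Hypoxia 1 and 2 and close to it in Hypoxia 4, and expression above background was not detectable there. Idi1 was not called without Hypoxia+Nitrate 4 (log2 fold change 1.59, edgeR adjusted p = 0.105), nor without Hypoxia 1, 2, 3 or 4 (adjusted p = 0.103, 0.0847, 0.052 and 0.0672; over 23 alternatives 0.00733 to 0.996).

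Fdps encodes farnesyl diphosphate synthase, whose product is the branch point between sterols and the prenyl groups of other lipids and proteins (ENSMUSG00000059743, chromosome 3, 89093588 to 89101959, minus strand). It was at 34.0, 25.8, 35.4 and 40.4 CPM in Hypoxia+Nitrate 1 to 4, and at 7.08, 13.5, 13.2 and 9.21 CPM in Hypoxia 1 to 4. The groups did not overlap, and the Hypoxia+Nitrate libraries were close to each other. The log2 fold change was 1.65 (SE 0.40, edgeR adjusted p = 0.0153), and 1.6 with Hypoxia+Nitrate 1 and 4 left out (edgeR adjusted p = 0.0188). It was not called without Hypoxia 1 or without Hypoxia 4 (log2 fold changes 1.48 and 1.72, edgeR adjusted p = 0.0654 and 0.0522; over 23 alternatives 0.000463 to 0.901). Only 73.3% of the exonic length of Fdps is free of other genes, the overlapping model being Gm43738, and the authors' counting could split or drop reads there. Hmgcs1 (87.9% free of other genes, antisense model Gm48342) and Idi1 (90.8%) share exonic length too, and the strand setting of the counting is not given in the sources used here.

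Insig1, the sterol sensor, was the next member by p (ENSMUSG00000045294, chromosome 5, 28071363 to 28078662, plus strand). It had 26.6, 43.0, 30.1 and 38.0 CPM in Hypoxia+Nitrate 1 to 4, against 14.0, 17.7, 19.7 and 20.2 CPM in Hypoxia 1 to 4. The groups did not overlap, but the log2 fold change of 0.94 (SE 0.37) did not pass (edgeR adjusted p = 0.0856; over 23 alternatives 0.0322 to 0.929). Groups that do not overlap were found for 3 of 8 members, Hmgcs1, Fdps and Insig1, all higher in Hypoxia+Nitrate. The same held in either direction for 40.8% of all genes tested, higher for 12% of them, and higher for 18% of nuclear protein-coding genes.

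Fdft1, squalene synthase, commits farnesyl units to sterols (ENSMUSG00000021273, chromosome 14, 63145150 to 63179578, minus strand). It held 16.1, 6.77, 4.08 and 39.7 CPM in Hypoxia+Nitrate 1 to 4, and 6.28, 6.76, 5.90 and 7.95 CPM in Hypoxia 1 to 4. Hypoxia+Nitrate 1 and 4 were above every Hypoxia library and Hypoxia+Nitrate 3 was below all of them. The log2 fold change of 1.31 (SE 0.64) did not pass (edgeR adjusted p = 0.146), and it was −0.23 without Hypoxia+Nitrate 1 and 4. Its exons overlap the Ctsb model, and 81.7% of its exonic length is free of other genes.

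The 3 members that act after squalene showed no call. Sqle, squalene epoxidase, is a further control point of the route (ENSMUSG00000022351, chromosome 15, 59315077 to 59331192, plus strand). It was at 10.7, 15.8, 4.46 and 10.3 CPM in Hypoxia+Nitrate 1 to 4, against 9.28, 7.71, 11.4 and 10.9 CPM in Hypoxia 1 to 4. The Hypoxia range lay inside the Hypoxia+Nitrate range, and the log2 fold change was 0.07 (SE 0.44, edgeR adjusted p = 0.912). Cyp51, the lanosterol demethylase (ENSMUSG00000001467, chromosome 5, 4081145 to 4104746, minus strand), had 13.4, 10.9, 5.72 and 13.6 CPM in Hypoxia+Nitrate 1 to 4, against 7.48, 9.24, 6.53 and 10.2 CPM in Hypoxia 1 to 4. Hypoxia+Nitrate 3 was the lowest library and the other three were above all Hypoxia libraries, with a log2 fold change of 0.38 (SE 0.41, edgeR adjusted p = 0.489). Dhcr7 encodes the reductase that turns 7-dehydrocholesterol into cholesterol (ENSMUSG00000058454, chromosome 7, 143823145 to 143848410, plus strand). It was at 15.8, 9.44, 7.46 and 9.37 CPM in Hypoxia+Nitrate 1 to 4, and at 12.5, 4.95, 12.4 and 11.4 CPM in Hypoxia 1 to 4. The groups overlapped, with a log2 fold change of 0.03 (SE 0.44, edgeR adjusted p = 0.969). A missed threshold does not show that these genes were alike in both groups.

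Scaling changed the sign of several of these values. Sqle and Dhcr7 were at −0.19 and −0.21 with RLE factors, −0.31 and −0.36 with upper-quartile factors, and −0.82 and −1.04 with library size alone. Cyp51 was at 0.14, −0.01 and −0.50 under these scalings, and Fdft1 at 1.05, 0.81 and −0.22. Hmgcs1, Idi1, Fdps and Insig1 stayed positive, at 1.42, 0.58, 0.83 and 0.24 with library size alone, where 0 of 8 members passed (edgeR, 0 also at an unadjusted p under 0.05). The median of all genes was −0.87, −0.94 and −1.07 under RLE, upper-quartile and library-size scaling.

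Measured against the other protein-coding genes of the same library, the summed counts of the 8 genes differed between the groups by less than the spread between libraries. They made up 0.0320% to 0.0514% of nuclear protein-coding counts in Hypoxia+Nitrate, a mean of 0.0416% ± 0.00799 (SD, n = 4), and 0.0363% to 0.0455% in Hypoxia, a mean of 0.0402% ± 0.00435 (SD, n = 4). The lowest of the 8 shares, that of Hypoxia+Nitrate 1, had a 95% Wilson interval of 0.0309% to 0.0332%, and the highest, that of Hypoxia+Nitrate 2, of 0.0495% to 0.0535%; such intervals cover counting error only. With the expected background taken off both sums, the shares averaged 0.0432% ± 0.0100 in Hypoxia+Nitrate and 0.0455% ± 0.00927 in Hypoxia (SD, n = 4 each). This measure does not depend on TMM, which gave the Hypoxia+Nitrate libraries factors of 0.220, 1.65, 2.13 and 0.393.

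**Figure D2:**
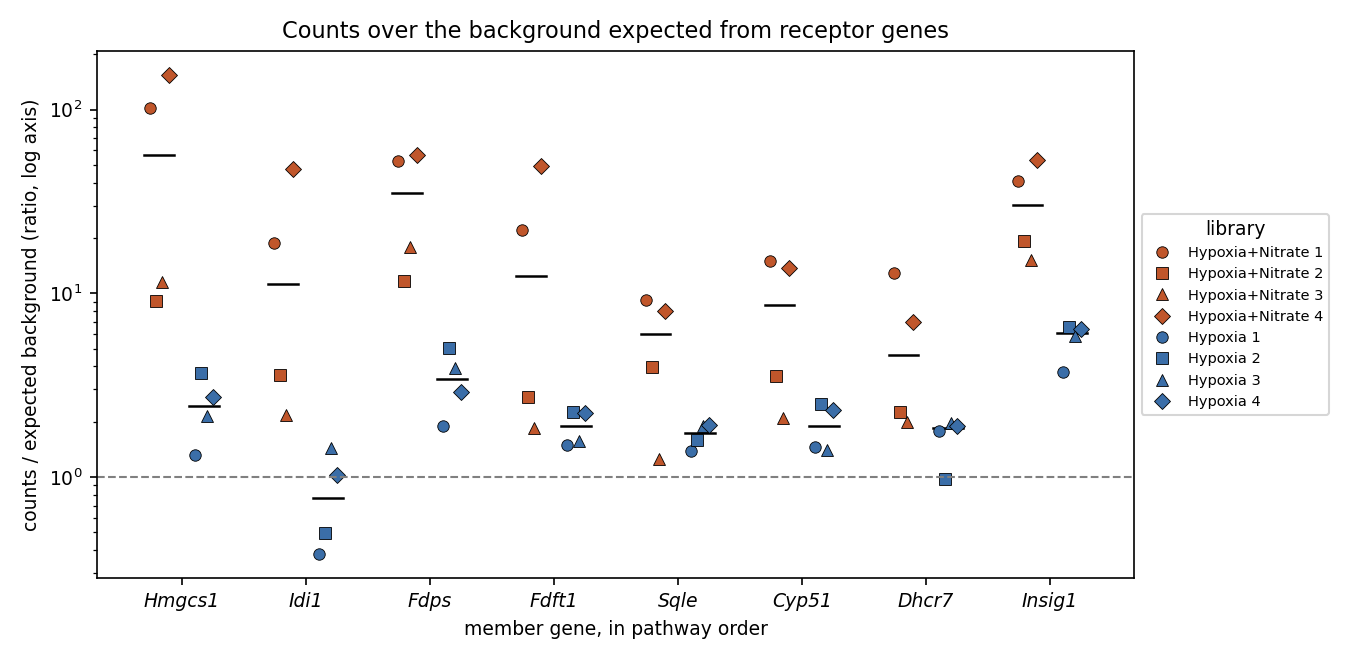
Counts of each member divided by the background expected from receptor genes for its unique exonic length, on a log axis, by library; the dashed line marks a ratio of 1 and black lines are group medians. Hypoxia+Nitrate medians lie between 4.6 for Dhcr7 and 56.9 for Hmgcs1 and Hypoxia medians between 0.765 for Idi1 and 6.10 for Insig1; Hypoxia+Nitrate 1 and 4 are the highest libraries for all 8 genes.

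The median ratio of counts to expected background was higher in Hypoxia+Nitrate for all 8 members. A higher ratio was not particular to them. The median over 4 endothelial markers was 3.65 to 11.6 in Hypoxia+Nitrate and 1.47 to 2.41 in Hypoxia. Their median log2 fold change was −0.04. For the 5 pancreatic acinar markers it was not higher, at 0 to 1.44 in Hypoxia+Nitrate and 1.13 to 1.67 in Hypoxia. As a sum over the 8 genes, counts were 31.7, 6.26, 5.83 and 44.0 times the expected background in Hypoxia+Nitrate 1 to 4, and 1.64, 2.63, 2.36 and 2.54 times in Hypoxia 1 to 4. In Hypoxia+Nitrate the median ratio was 30.1 for Insig1, 35.1 for Fdps, 56.9 for Hmgcs1, 12.5 for Fdft1, 8.69 for Cyp51, 4.6 for Dhcr7, 6.0 for Sqle and 11.2 for Idi1. In Hypoxia it was 6.10 for Insig1, 3.42 for Fdps, 2.44 for Hmgcs1, 1.90 for Fdft1, 1.89 for Cyp51, 1.84 for Dhcr7, 1.74 for Sqle and 0.765 for Idi1. Within Hypoxia+Nitrate, libraries 1 and 4, with the least background, gave the highest ratios for all 8 members. With the expected background subtracted and limma-voom applied, 1 member was called, Idi1 (limma-voom adjusted p = 0.0266). Its counts in Hypoxia 1 and 2 are 0 after subtraction and those in Hypoxia 4 close to 0, so the fitted fold depends on the small count that voom adds and is no measure of size. Hmgcs1, Fdps, Insig1 and Sqle were then at 1.91, 0.70, −0.30 and −0.95 and were not called. With the background share of each library as a covariate in edgeR, 0 members passed and Hmgcs1, Idi1 and Fdft1 were at −0.43, −0.09 and −1.67. In that fit 0 of all 35431 genes passed, and 2640 had an unadjusted p under 0.05. The background share of the 4 Hypoxia+Nitrate libraries did not overlap that of the 4 Hypoxia libraries, so background and nitrate cannot be told apart.

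Per kilobase of exon, and with background included, the order of the mean levels differed between the groups. In Hypoxia+Nitrate it was Hmgcs1 (15.7 ± 12.2 CPM per kb), Insig1 (11.1 ± 2.40), Fdps (8.05 ± 1.45), Idi1 (4.29 ± 3.88), Fdft1 (3.94 ± 3.83), Cyp51 (2.47 ± 0.833), Sqle (1.86 ± 0.836) and Dhcr7 (1.81 ± 0.623; mean ± SD, n = 4). In Hypoxia it was Insig1 (5.79 ± 0.921 CPM per kb), Fdps (2.56 ± 0.748), Hmgcs1 (2.19 ± 0.617), Cyp51 (1.89 ± 0.374), Dhcr7 (1.77 ± 0.621), Sqle (1.77 ± 0.304), Fdft1 (1.59 ± 0.211) and Idi1 (0.801 ± 0.494; mean ± SD, n = 4). Neighbours whose mean ± SD ranges did not meet were Insig1 and Fdps, and Fdft1 and Idi1, both pairs in Hypoxia. No neighbours in the Hypoxia+Nitrate order differed beyond their spread. In Hypoxia+Nitrate 2 and 3, Hmgcs1 was below Insig1 even in CPM, at 26.5 and 29.9 against 43.0 and 30.1. In Hypoxia, median counts of Cyp51, Dhcr7, Sqle, Fdft1 and Idi1 were 0.765 to 1.90 times the expected background. Their order there thus rests partly on background.

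**Figure D3:**
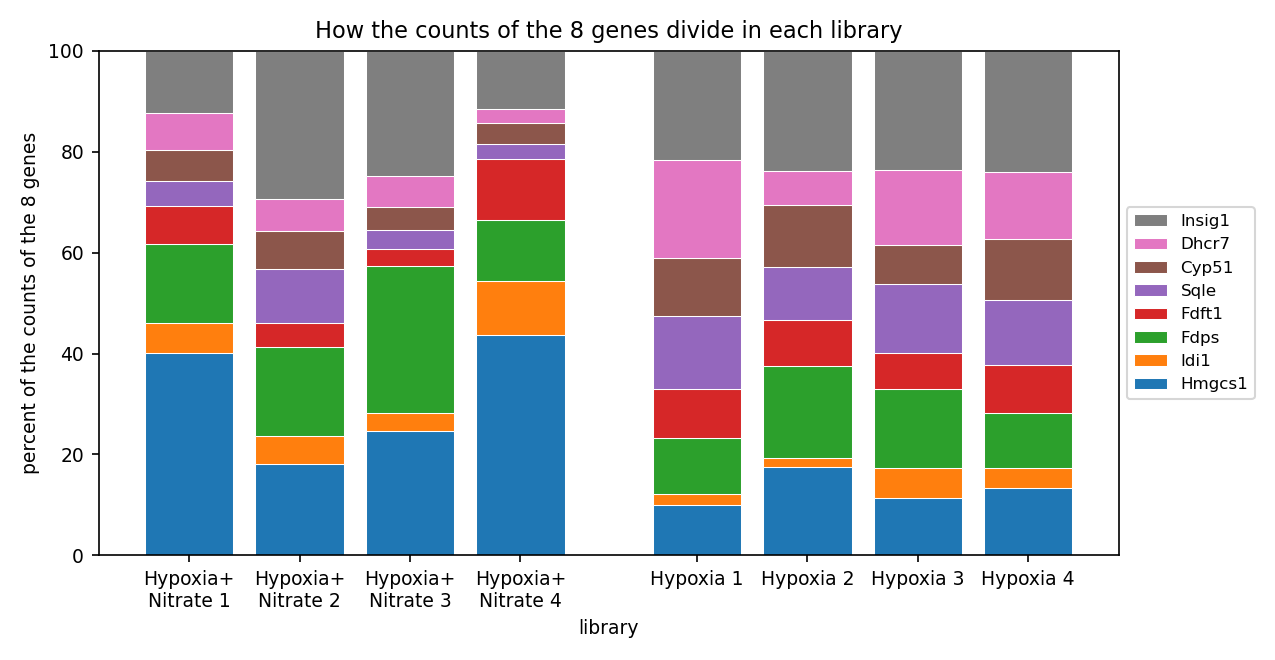
Share of the summed counts of the 8 genes held by each, as stacked bars in percent, by library with Hypoxia+Nitrate left of Hypoxia. Hmgcs1 takes 18.1% to 43.8% in Hypoxia+Nitrate and 9.95% to 17.5% in Hypoxia.

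The make-up of the 8 genes within each library does not depend on scaling between libraries. Hmgcs1 held 31.7% ± 12.3 of their counts in Hypoxia+Nitrate and 13.0% ± 3.31 in Hypoxia (SD, n = 4 each), with no overlap (2-sided p = 0.0286 by exact permutation, a floor set by the 4 libraries in each group; 0.114 after Benjamini-Hochberg adjustment over the 8 genes). Cyp51 held 5.61% ± 1.5 in Hypoxia+Nitrate and 11% ± 2.13 in Hypoxia, likewise with no overlap and the same p. Sqle held 5.64% ± 3.53 in Hypoxia+Nitrate and 12.8% ± 1.75 in Hypoxia, and Dhcr7 5.68% ± 1.96 in Hypoxia+Nitrate and 13.6% ± 5.27 in Hypoxia (exact permutation p = 0.0571 for each). None of the 8 shares passed after adjustment. A gene that rises lowers the shares of the other seven, so these tests are not independent. With the expected background taken off, Hmgcs1 held 33.0% ± 11.9 in Hypoxia+Nitrate and 12.5% ± 6.08 in Hypoxia (exact permutation p = 0.0571), and the groups overlapped, with 19.2% in Hypoxia+Nitrate 2 against 20.0% in Hypoxia 2. Cyp51 then held 4.80% ± 1.63 in Hypoxia+Nitrate and 8.85% ± 3.57 in Hypoxia (exact permutation p = 0.0857), and its groups overlapped too. The Insig1 share moved most with this step among Hmgcs1, Cyp51 and Insig1. It was 19.5% ± 8.96 in Hypoxia+Nitrate and 23.3% ± 1.08 in Hypoxia as counted (exact permutation p = 0.429), and 21.3% ± 10.9 in Hypoxia+Nitrate and 34.0% ± 2.26 in Hypoxia with the background off (exact permutation p = 0.0571). After adjustment over the 8 genes, none passed with the background off either.

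**Figure D4:**
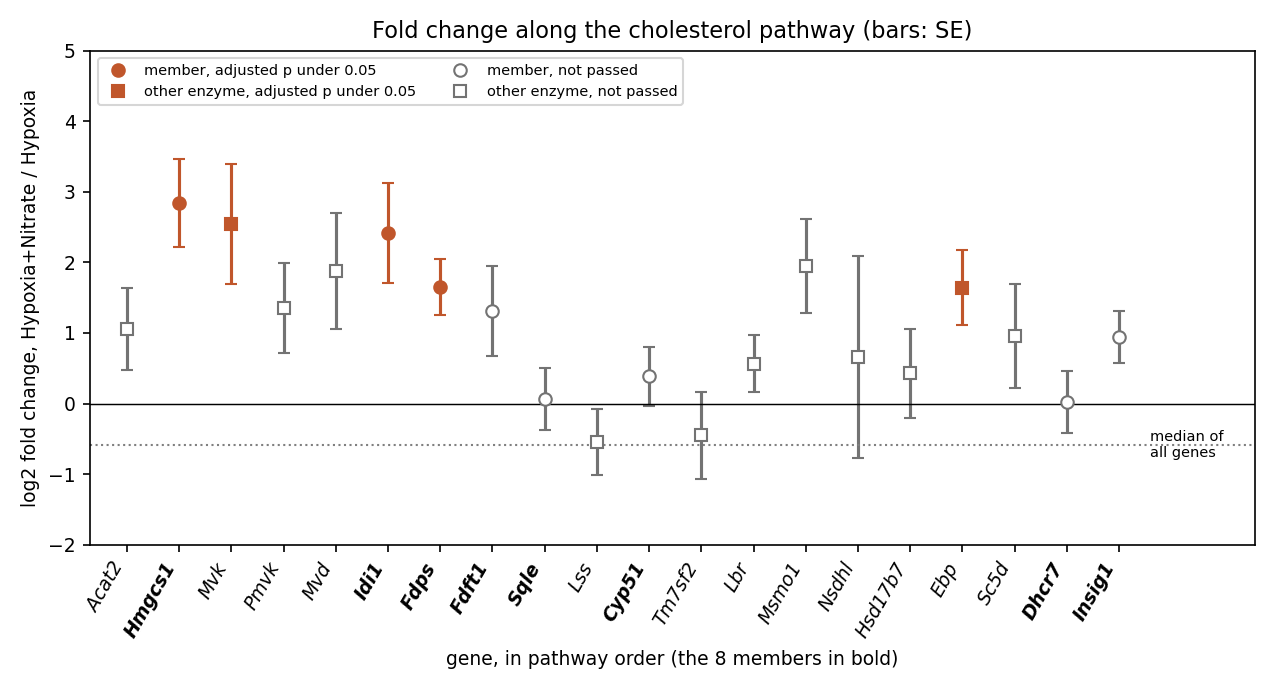
log2 fold change of Hypoxia+Nitrate over Hypoxia for genes of the route in pathway order, with bars of 1 SE; filled symbols passed an adjusted p of 0.05, circles are the 8 members, squares other enzymes of the route, and the dotted line is the median of all genes at −0.58. The calls shown are Hmgcs1, Mvk, Idi1, Fdps and Ebp.

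Of the 14 other enzymes of the route, 3 rose, among them Mvk and Ebp, and 11 did not pass, with a median log2 fold change of 1.01. That count is near the share over nuclear protein-coding genes, of which 18.5% were higher. Mvk, mevalonate kinase, rose by 2.55 on the log2 scale (SE 0.85, edgeR adjusted p = 0.0495), and Ebp, the sterol isomerase, by 1.64 (SE 0.53, edgeR adjusted p = 0.0455). The groups overlapped for Mvk, which held 23.7, 3.41, 2.72 and 40.0 CPM in Hypoxia+Nitrate 1 to 4, against 2.40, 1.45, 2.74 and 5.30 CPM in Hypoxia 1 to 4. Mvk and Ebp were not called without any 1 Hypoxia library, without Hypoxia+Nitrate 1 or without Hypoxia+Nitrate 4, with log2 fold changes over these fits of 1.74 to 3.17 for Mvk and 1.34 to 1.76 for Ebp. With Hypoxia+Nitrate 1 and 4 both left out, Mvk was at 0.13 (edgeR adjusted p = 0.887). Msmo1 and Mvd, a sterol oxidase and the mevalonate diphosphate decarboxylase, had log2 fold changes of 1.95 and 1.88 and did not pass (edgeR adjusted p = 0.0541 and 0.11).

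Among 8 genes of sterol sensing and SREBP processing, 1 rose and 7 did not pass (median log2 fold change 0.78). The share of nuclear protein-coding genes called higher was 18.5%, so this count does not set the list apart. Srebf2, which encodes SREBP2, was at 53.4, 23.0, 24.7 and 71.1 CPM in Hypoxia+Nitrate 1 to 4, against 12.3, 25.9, 16.6 and 12.6 CPM in Hypoxia 1 to 4. Hypoxia 2 lay above both Hypoxia+Nitrate 2 and Hypoxia+Nitrate 3, and the log2 fold change of Srebf2 was 1.35 (SE 0.50, edgeR adjusted p = 0.0707).

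Of 8 other SREBP2 targets and sterol uptake genes, Stard4, Npc1l1 and Npc2 rose and 5 did not pass (median log2 fold change 0.44). Of nuclear protein-coding genes, 18.5% were higher. Stard4, a cytosolic sterol carrier and SREBP2 target, rose by 3.80 on the log2 scale (SE 0.89, edgeR adjusted p = 0.0143). It was not called without Hypoxia 1, 3 or 4 (log2 fold changes 3.86, 3.51 and 3.89). Npc2, a lysosomal sterol carrier, rose by 1.77 on the log2 scale (SE 0.51, edgeR adjusted p = 0.0292) and was not called without Hypoxia+Nitrate 1 or 4 or without any 1 Hypoxia library (1.44 to 1.97). Npc1l1, the brush border importer of dietary sterol, rose by 4.01 on the log2 scale (SE 1.11, edgeR adjusted p = 0.0257), but held 428 and 185 CPM in Hypoxia+Nitrate 1 and 4 and only 14.8 and 8.38 CPM in Hypoxia+Nitrate 2 and 3, against 8.95 to 12 CPM in Hypoxia. Without Hypoxia+Nitrate 1 and 4 its log2 fold change was 0.31 (edgeR adjusted p = 0.514), and Npc1l1 was also not called without Hypoxia+Nitrate 1 alone (2.83) or without any 1 Hypoxia library (3.82 to 4.30).

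Genes of sterol storage and export were looked at beside the synthesis genes, and again 18.5% of nuclear protein-coding genes were higher. Of 6 genes of cholesterol esterification and chylomicron sterol, 5 rose (median log2 fold change 3.77), among them Mttp, which loads lipid onto apolipoprotein B, by 4.80 and Soat2, which esterifies cholesterol in enterocytes, by 2.74 on the log2 scale. Of 8 LXR and sterol efflux genes 5 rose (median 2.44), with the sterol receptors Nr1h2 and Nr1h3 at 2.70 and 2.82 and the transporter subunit Abcg8, which returns sterol to the lumen, at 2.17 on the same scale. Nr1h2 was called without each single library in turn. Soat2 and Nr1h3 were not called without any 1 Hypoxia library (2.60 to 2.86 and 2.65 to 3.02), Mttp without Hypoxia 1 or 3 (4.70 and 4.45), and Abcg8 without Hypoxia 1, 3 or 4 (2.08, 2.02 and 2.28). Both lists share their highest libraries, Hypoxia+Nitrate 1 and 4, with the enterocyte markers. For the esterification and chylomicron list this is partly the same gene, as Apoa4 is also an enterocyte marker here. Apoa4 held 13491 and 8515 CPM in Hypoxia+Nitrate 1 and 4, of 27021 and 17986 CPM summed over that list. The sum of the 8 members was highest in these libraries too, at 216 and 331 CPM against 146 and 122 CPM in Hypoxia+Nitrate 2 and 3. Of that sum, Hmgcs1 held 86.8 and 145 CPM in Hypoxia+Nitrate 1 and 4. Hmgcs1, Idi1, Fdft1 and Cyp51 were each highest in Hypoxia+Nitrate 1 and 4. The other members were not: Insig1 and Sqle peaked in Hypoxia+Nitrate 2, Fdps was higher in Hypoxia+Nitrate 3 than in 1, and Dhcr7 higher in 2 than in 4. The 14 other enzymes of the route summed to 354 and 341 CPM in Hypoxia+Nitrate 1 and 4, against 101 and 111 CPM in 2 and 3.

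Across 23 alternatives in scaling, filter, tool and samples, the calls of Hmgcs1 and Fdps held in most and that of Idi1 in 11. Insig1 passed in 3 and Fdft1 in 2 of them.

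**Figure D5:**
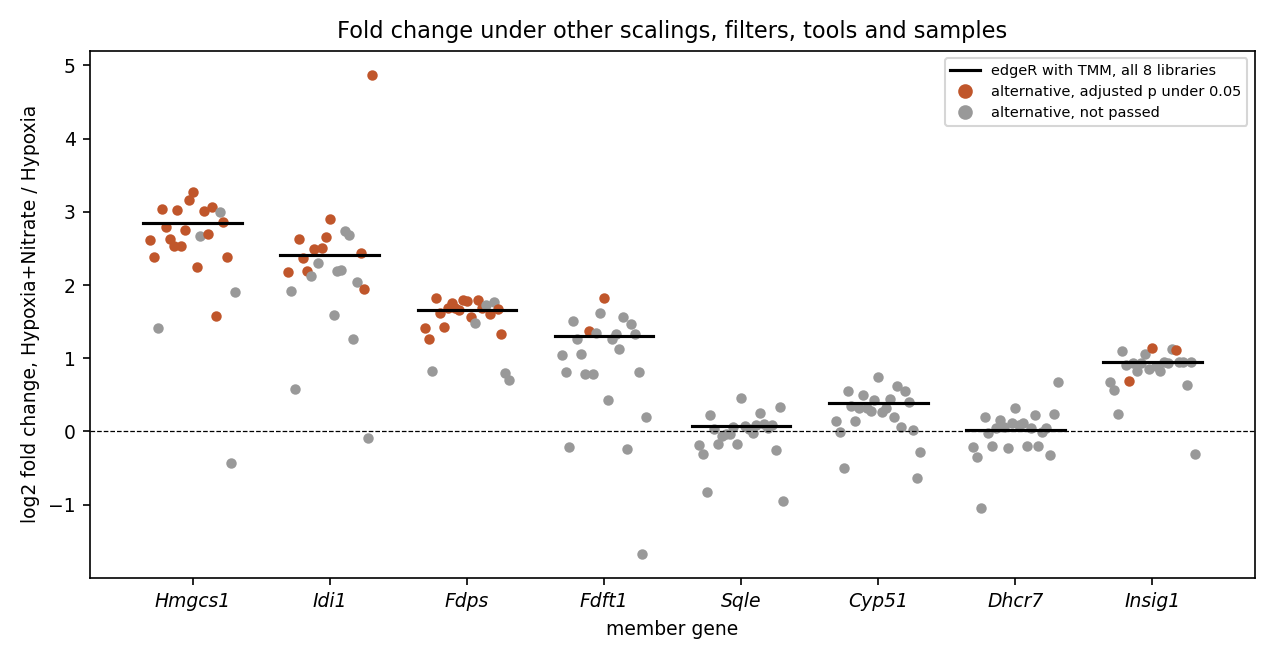
log2 fold change of each member under the 23 alternatives (points, coloured where the adjusted p was under 0.05) beside the value from edgeR with TMM and all 8 libraries (black line). Hmgcs1 passed in 18, Fdps in 17 and Idi1 in 11 of the 23, while Sqle, Cyp51 and Dhcr7 passed in none; the topmost Idi1 point is the fit after background subtraction, where Hypoxia is at about 0.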

How the data were processed

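RNA from 8 small intestine libraries was sequenced, 4 Hypoxia+Nitrate and 4 Hypoxia. The deposited values are read counts per gene. HISAT, featureCounts 1.5.0-p3 and DESeq 1.8.3 with GRCm38 are named in the submitters' processing notes, and a stranded KAPA kit per the labels' protocols. The counts were tested as deposited with edgeR 4.0.16 in R 4.3.3 (filterByExpr minimum count 10, TMM, quasi-likelihood test, Benjamini-Hochberg threshold 0.05). DESeq2 1.42.0, limma-voom (limma 3.58.1), other scalings, filters, covariates and left-out libraries were alternatives. The test was checked on simulated data drawn from the same composition in both groups. That check does not cover the differences in background and composition between these libraries. SE is the log2 fold change divided by the root of F. Expected background is the receptor genes' counts per kb times a gene's exonic length free of other genes (GENCODE M21, factor 0.5 on X and Y). Shares were compared with 2-sided exact permutation tests. The members and lists were chosen with earlier results of these data known. Named genes are the members, other enzymes that passed or had the 5 lowest p, up to 3 of each other list, and the 5 nearest profiles. Promoters are RefSeq's. PCR duplicates were not separable, and intervals cover counting error only. Some genes of the lists are counted but not reported here by name.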

Additional observations from a re-analysis of the deposited data

Results flagged for a closer look

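Dhcr7 in Hypoxia 2, at 4.95 CPM, stood apart from the other three Hypoxia libraries, which held 11.4 to 12.5 CPM. Its gap to the nearest of them, as a share of the whole range, was 0.854, above Dixon's 95% critical value of 0.829 for 4 samples. It was 1 of 16 groups tested, and chance marks about 1 in 20 groups. The library had 68 counts of Dhcr7, 0.975 times the expected background. Without it the log2 fold change of Dhcr7 was −0.19, against 0.03 with all libraries.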

How the results depend on the processing

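Members called higher, 3 by edgeR with TMM, were 0 with library size alone, without Hypoxia 1 and 2 and with the background covariate, and 1 after background subtraction; leaving out 1 library gave 0 to 5, and no setting of the 23 called a member lower. Other enzymes called higher, 3 likewise, were 0 with library size alone, with the block, without Hypoxia 1 and 2, with the covariate and after subtraction, 1 with RLE, upper-quartile, the CPM filter, limma-voom or nuclear protein-coding genes only, and 6 with quality weights; leaving out 1 library gave 0 to 7. Genes called, 8653 of all tested, were 1800 with library size alone, 16708 with no filter, 22228 by DESeq2, 15818 by limma-voom, 20696 with quality weights, 4227 without Hypoxia 1 and 2, 0 with the covariate and 2006 after subtraction; leaving out 1 library gave 1932 to 22454. Higher calls made up 48.1% of calls with TMM, 35% with RLE, 34.4% with upper-quartile and 13.5% with library-size scaling.

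Signs turned as follows, in log2 fold changes. Sqle was −0.19 with RLE, −0.31 with upper-quartile, −0.82 with library size, −0.18 by DESeq2, −0.056 by limma-voom, −0.038 with quality weights, −0.037 with the block, −0.26 with protein-coding genes only and −0.95 after subtraction, and −0.17 to 0.46 leaving out 1 library. Dhcr7 was −0.21, −0.36 and −1.04 under the same scalings, −0.015 with the CPM filter, −0.20 by DESeq2, −0.19 without Hypoxia+Nitrate 1 and 4, −0.0077 without Hypoxia 1 and 2, −0.32 with protein-coding genes only, and −0.23 to 0.32 leaving out 1 library. Cyp51 was −0.011 with upper-quartile, −0.50 with library size, −0.63 with the covariate and −0.29 after subtraction. Fdft1 was −0.22 with library size, −0.23 without Hypoxia+Nitrate 1 and 4 and −1.67 with the covariate. Subtraction put Insig1 at −0.30 and Mvd at −0.33, and Mvd was −0.51 without Hypoxia+Nitrate 1 and 4. The covariate put Hmgcs1 at −0.43, Idi1 −0.085, Mvk −2.17, Msmo1 −0.43, Mvd −3.35, Srebf2 −0.89, Stard4 −0.46, Npc1l1 −2.18, Npc2 −0.19, Mttp −1.33, Soat2 −0.21, Abcg8 −0.19, Nr1h3 −1.33, Acly −0.73 and Nus1 −0.34. The cause was not tested.

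Replicate numbers gave no clear sign of pairing: deviations of same-numbered libraries correlated at 0.0506, −0.182, 0.184 and −0.0503. Those of differently numbered libraries correlated at −0.162 to 0.173. So few pairs cannot show that pairing was absent. With the replicate number as a block, 4791 genes passed, with 2 members (Hmgcs1 and Fdps) and 0 other enzymes. Shares of the 8-gene counts without background or without 1 library were alternatives chosen after seeing the data; without background the Insig1 difference went to −12.7 percentage points, against −3.77 with it. Idi1 had 19 to 95 counts in Hypoxia, which is 0.382 to 1.44 times the expected background, and this limits its fold change.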

Other observations

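Beyond sterols, 4 of 12 genes of SREBP1-driven fatty acid synthesis rose and 0 fell, with a median log2 fold change of 0.72. For comparison, 18.5% of nuclear protein-coding genes were higher. Fads1 and Fads2, desaturases of polyunsaturated fatty acids, rose by 1.46 and 1.66 on the log2 scale (edgeR adjusted p = 0.0231 and 0.0248), and Acly, which supplies cytosolic acetyl-CoA, rose by 1.67 (edgeR adjusted p = 0.0476). Acly was not called without Hypoxia+Nitrate 1 or 4 or without any 1 Hypoxia library (1.22 to 1.93), and Fads2 not without Hypoxia+Nitrate 4 or any 1 Hypoxia library (1.45 to 1.74). Fads1 was not called without Hypoxia 2, 3 or 4 (1.45, 1.24 and 1.54).

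Of 9 genes of the isoprenoid branches that leave the route at farnesyl diphosphate, 2 rose and 0 fell (median 1.05). This is near the 18.5% of nuclear protein-coding genes that were higher. Nus1, needed for dolichol, rose by 2.50 on the log2 scale (edgeR adjusted p = 0.0249) and Coq2, an enzyme of ubiquinone synthesis, by 1.97 (edgeR adjusted p = 0.0291). Nus1 was not called without Hypoxia+Nitrate 4 or any 1 Hypoxia library (2.04 to 2.64), and Coq2 not without Hypoxia+Nitrate 1 or 4 or Hypoxia 1, 3 or 4 (1.55 to 2.0).

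The 5 genes whose log2 CPM profile over the 8 libraries was nearest to the members' mean profile, among 24116 genes compared, were Ring1, Scaf1, Itgb5, Prkx and Zcchc9. Their root mean square differences were 0.139, 0.140, 0.143, 0.145 and 0.153, and none of the 5 passed the test between groups. The members themselves lay between 0.413 for Insig1 and 0.876 for Hmgcs1 from their own mean. Set among the 24116 genes compared, these are ranks 701 and 6870. The 5 genes were picked as the nearest, so nothing follows from the members lying farther than they do.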
